A study of Homo sapiens with 33 samples.

Results

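The comparison described here set mesothelioma cells that had been taken off palbociclib for 48 h against the same lines kept in DMSO, to find which changes of expression outlast the drug. It used 8 of the 33 RNA-seq libraries of the series. They were the washout library and the DMSO library of the same experiment in each of 4 established malignant pleural mesothelioma (MPM) lines that respond to palbociclib, NCI-H2052 (H2052), NCI-H2452 (H2452), NCI-H28 (H28) and MSTO-211H (MSTO). DMSO cells had 0.1 % DMSO for 10 days. Washout cells had 1 uM palbociclib for 10 days, were rinsed with PBS and then spent 48 h in medium without the drug. The 4 palbociclib libraries of the same experiments (1 uM for 10 days) also entered the fit, which gave 12 libraries. All cells were grown in RPMI-1640 with serum. Each line had 1 washout library, so the lines are the replicates, and a single line has no replicate check. The washout cells were also in culture for 48 h longer than the DMSO cells, and this cannot be told apart from the washout.

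Palbociclib inhibits CDK4 and CDK6, the kinases that D-type cyclins activate in G1. Without their activity the retinoblastoma protein stays bound to E2F factors, and the genes of DNA replication and mitosis are not transcribed. Cells held in such an arrest for days can take on traits of senescence, a state known for enlarged lysosomes, a changed chromatin and the secretion of cytokines, proteases and matrix proteins that is called the SASP (senescence-associated secretory phenotype).

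Values are CP20M, counts per 20000000 reads, which the authors rounded up to whole numbers. Differences are given on the log2(CP20M + 10) scale, which understates the change of low genes. A gene was called a DE gene when its fold change (FC) was above 1.5 or below 1/1.5 with an FDR under 0.05 in limma. Depth could be estimated for 4 of the 12 libraries and lay between 13360000 reads, in the H28 washout library, and 19900000. KRT8, KRT18 and VIM, which mesothelial tumour cells express, were found in all 12 libraries, whereas the mesothelial markers KRT5 and ITLN1 did not exceed 6 and 19 CP20M. MSLN ran from 9 to 6853 CP20M. Of 14 markers of other cell types, CD3E, a T cell marker, was at 0 in every library. The sum of the 14 was 387 to 1218 CP20M in DMSO and 482 to 1970 after washout, and CD68 alone, a lysosomal protein of macrophages, had 188 to 1844 CP20M over the 12 libraries. Their part in the results below was not tested.

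After washout, 500 of 17803 tested genes were higher than in DMSO (2.81%) and 526 were lower (2.95%), while 5265 had an unadjusted p under 0.05. The difference had the same sign in all 4 lines for 483 of the 500 and for 522 of the 526. The median over all tested genes was -0.05. In such bulk samples, fewer cells of a kind and less RNA per cell cannot be told apart. With another scaling the balance moved, to 669 higher and 289 lower with median-of-ratios factors and to 577 and 376 with upper-quartile factors, so that the share of calls that were higher went from 48.7% to 69.8% and 60.55%. The counts also depended on single lines. They were 109 higher and 123 lower without H2052, 236 and 409 without H2452, 345 and 414 without H28, and 81 and 164 without MSTO. With the 8 washout and DMSO libraries alone, 114 genes were higher and 208 lower.

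**Figure D1:**
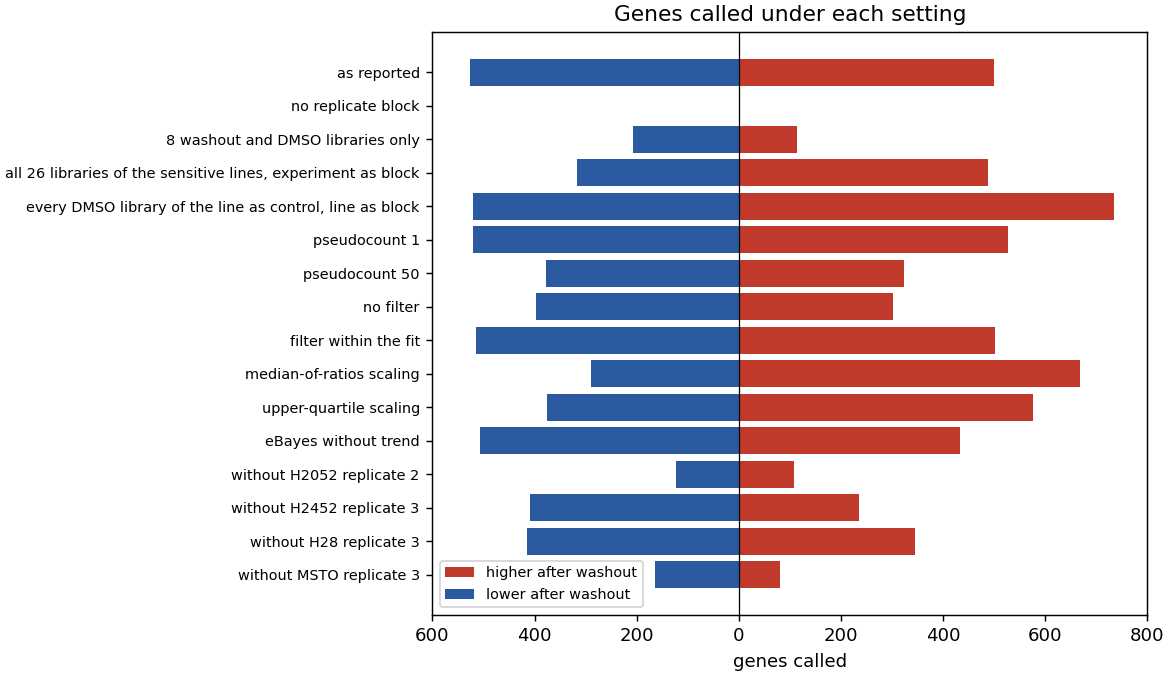
Number of genes called higher (to the right) and lower (to the left) after washout than in DMSO under each setting of the fit; the bar named as reported holds 500 and 526 genes. The fit that ignores the line has no calls. Of the 4 fits that leave out a line, the one without MSTO has the fewest higher genes (81, with 164 lower). The one without H2052 has the fewest lower genes (123, with 109 higher).

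In each of the 4 fits without 1 line and in the fit of 8 libraries alike, 47 of the higher and 81 of the lower genes were called, a set taken after the values were seen. ANKRD1, a nuclear ankyrin-repeat protein and a target of YAP and TEAD, was among the higher genes. So were IGFBP7, a secreted binding protein of insulin-like growth factors, and the lysosomal genes ASAH1, MCOLN1, CTSA, CTSB and GLB1. The lower 81 held 19 gene IDs of the histone clusters, HIST1H3D counted with both of its IDs, and 23 genes of cytosolic ribosomal proteins. Among the other 39 were H3F3B, a histone gene outside the clusters, MRPL9, a mitochondrial ribosomal protein, INSIG1, FADS1, FADS2 and the receptor kinase AXL.

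Whether palbociclib itself moves these genes was read from 7 earlier pairs of palbociclib and DMSO libraries. H2052 gave 1 pair, and the other lines gave 2 pairs each. The palbociclib dose in these pairs was the same 1 uM, but treatment was shorter than the 10 days of the washout experiments. The effect of this difference was not tested. These pairs share the lines with the washout experiments but no library. They called 656 genes up (3.68%) and 1222 genes down (6.86%). All 656 up genes had a washout minus DMSO difference above 0, against 7794 of all 17803 tested genes. Of the 656, 305 were called higher (46.5%, against 2.81% of all tested genes). None was called lower. Their median was 0.83 after washout and 0.96 under palbociclib in the same experiments. Of the 1222 down genes, 1194 were below 0, against 9997 of all 17803 tested genes. Called lower were 266 of the 1222 (21.8%, against 2.95% of all tested genes). None was called higher. Their median was -0.49 after washout and -1.04 under palbociclib. The palbociclib and washout values of the same experiments share their DMSO libraries and are only set side by side.

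The genes induced in the earlier pairs made up 61.0% of the 500 higher genes, and the genes repressed there made up 50.6% of the 526 lower ones. The other 195 higher genes were not called in the earlier pairs, where 189 of them had a difference above 0. The other 260 lower genes had earlier differences that were all below 0. In the earlier pairs, the median was 0.47 for these 195 genes and -0.41 for these 260. It was -0.08 over all genes not called there, so a value below 0 was common. By line, the median of the 656 up genes after washout was 0.59 in H2052, 0.73 in H2452, 0.68 in H28 and 1.12 in MSTO. The median of the 1222 down genes was -0.32 in H2052, -0.34 in H2452, -0.71 in H28 and -0.64 in MSTO. The count of 305 genes came to between 63 and 195 when a line was left out, lowest without MSTO, and that of 266 genes to between 59 and 198, again lowest without MSTO. Without H2052 they were 82 and 73.

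**Figure D2:**
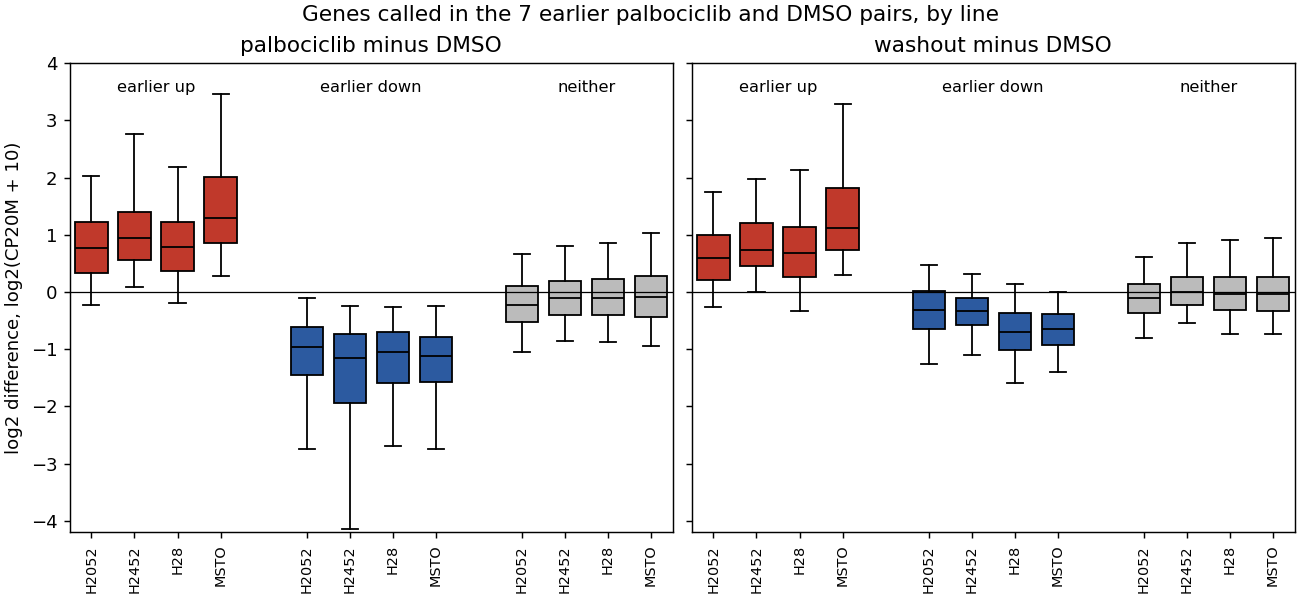
Log2 difference from DMSO by line under palbociclib (left) and after washout (right) for the 656 genes up, the 1222 genes down and the genes not called in the 7 earlier pairs; boxes span the quartiles, the line is the median and whiskers reach the 5th and 95th percentiles of genes. The up genes keep line medians of 0.59 to 1.12 after washout, while the down genes have line medians of -0.71 to -0.32.

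The called genes with the largest rises after washout and 1 sign in all lines are described first. C3, the central component of complement (ENSG00000125730, chromosome 19 from 6677704 to 6730562), had 337, 6083, 976 and 398 CP20M in the DMSO libraries of H2052, H2452, H28 and MSTO. After washout it had 3610, 8143, 4611 and 10826 CP20M in the same order. Each line was higher after washout, and H2452, the highest in DMSO, changed least. The difference was 2.69 ± 0.60 (SE of the limma fit of 12 libraries, FDR 0.0232) after washout and 3.07 under palbociclib. Here and below, values after ± are this SE of the fit and not the spread of the 4 line differences.

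IGFBP3, a binding protein of insulin-like growth factors, had 1932, 1310, 11664 and 1004 CP20M in DMSO and 7828, 9972, 14355 and 24810 after washout. H28 started highest and moved by only 0.30, and the difference over the lines was 2.46 ± 0.62 (FDR 0.0345). ANKRD1 (chromosome 10 from 90912096 to 90921087) had 313, 3770, 556 and 679 CP20M in DMSO and 2930, 9019, 2941 and 5505 after washout. Its difference of 2.46 ± 0.26 (FDR 0.00369) had a smaller SE than the other large rises, and in H2052 and MSTO the washout library was above the palbociclib library, at 2157 and 4335 CP20M.

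FN1, which encodes fibronectin (chromosome 2 from 215360440 to 215436073), had 36465, 1609, 51392 and 329 CP20M in DMSO and 90662, 3668, 260916 and 3519 after washout. The lines span a wide range of levels, and each rose (2.06 ± 0.34, FDR 0.0093). PLAT, the tissue-type plasminogen activator, went from 24024, 68, 109 and 2946 to 53503, 829, 132 and 29237 CP20M (2.04 ± 0.50, FDR 0.0315), with little change in H28. DPP4, a surface peptidase, went from 1949, 4008, 1814 and 65 to 3095, 7919, 14033 and 1893 CP20M (2.31 ± 0.59, FDR 0.0355). The other genes among the 15 largest rises of such called genes were SCG2, LCP1, TMEM178B, PI3, LIPH, OR2I1P, ADAMTS15, SH3TC2 and CCND2. Their differences were from 1.97 to 2.44. PI3, an elastase inhibitor, had 70 CP20M in H2052 DMSO and 0 in the DMSO libraries of the other 3 lines.

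**Figure D3:**
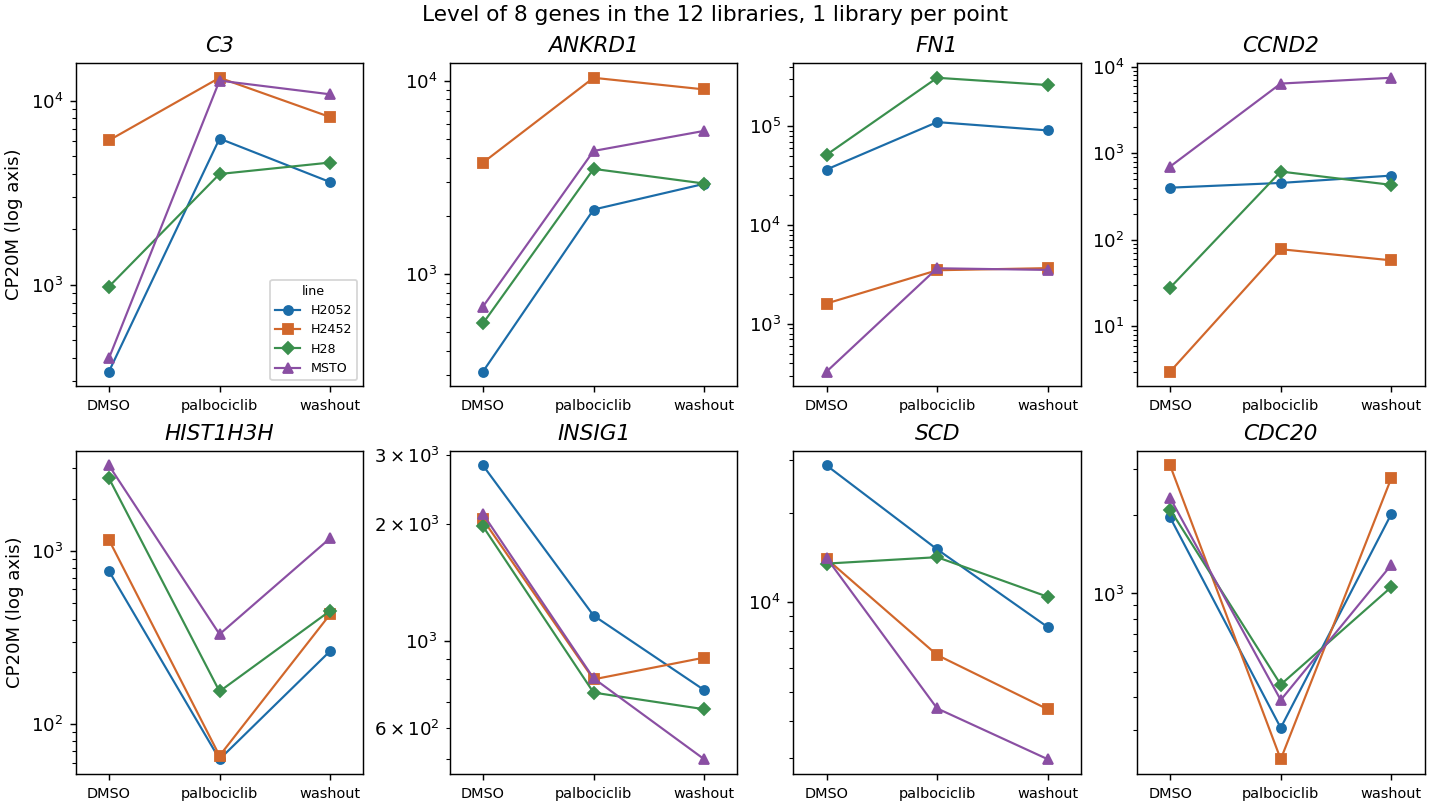
CP20M on a log axis of 8 genes in the DMSO, palbociclib and washout library of each of the 4 lines. C3, ANKRD1, FN1 and CCND2 stay above DMSO after washout in every line, HIST1H3H, INSIG1 and SCD stay below, and CDC20 returns to 2017 CP20M in H2052 and 2769 in H2452 but to 1059 in H28 and 1288 in MSTO.

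Among the lists of secreted and matrix proteins, few members were called lower, and the lines were not alike. The collagens, fibronectin and matricellular proteins had 5 of 29 tested members higher (17.2%, against 2.81% of all) and 0 lower, with a median of 0.53, against -0.05 over all tested genes. The difference was below 0 for 7 of the 29. Line medians were 0.47 in H2052, 0.34 in H2452, -0.10 in H28 and 1.21 in MSTO. FN1, THBS1 (1.43), SPARC (0.73) and COL6A1 (0.60) were among the 5 higher members. Of 16 matrix proteases and inhibitors, 5 were higher and 0 lower. MMP1, an interstitial collagenase, was the largest (1.64 ± 0.36, FDR 0.0212), at 675, 9, 13 and 2486 CP20M in DMSO and 2226, 83, 95 and 3222 after washout, above every palbociclib library of its line (904, 40, 87 and 1814). ADAMTS1 (1.08), TIMP1 (0.95), ADAMTS5 (0.85) and MMP15 (0.73) were the others.

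Against the 2.81% of all tested genes that were higher, the plasminogen system and SERPINs had 4 of 17 members higher, PLAT, SERPINB2 (1.32), SERPINE2 (1.26) and SERPINI1 (1.12), and 0 lower. Line medians of this list were 0.10 in H2052, 0.67 in H2452, -0.10 in H28 and 1.07 in MSTO. Of 10 IGF binding proteins and receptors, IGFBP3, IGFBP7 (0.80 ± 0.10, FDR 0.00451) and IGF2R (0.62) were higher. Of 16 complement genes, C3 and C1S (1.46), a protease of the classical pathway, were higher. Of 17 adhesion molecules, DPP4, L1CAM (1.72) and ICAM1 (1.49) were higher. The adhesion list had line medians of 0.48 in H2052, 0.49 in H2452, 0.00 in H28 and 0.70 in MSTO. ICAM1, a ligand of leukocyte integrins, had 2023, 7542, 20 and 1286 CP20M in DMSO and 12303, 12471, 44 and 4523 after washout, all below the palbociclib libraries. VCAM1 was at 0.84 (FDR 0.161). Without H2052 the calls of these lists came to 0 for collagens, proteases, complement and adhesion molecules.

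Cytokines and chemokines had 4 of 27 tested members higher (14.8%, against 2.81% of all tested genes) and 1 lower (3.70%, near the 2.95% of all), with a median of 0.56. By line the median was 0.33 in H2052, 0.585 in H2452, 0.00 in H28 and 0.96 in MSTO. CCL20 (1.54), IL1B (1.52), CCL26 (1.28) and CXCL8 (1.09) rose. CCL20 was low, with 39, 0, 12 and 2 CP20M in DMSO and 62, 5, 86 and 79 after washout. So was CCL26, with 19, 3, 0 and 10 CP20M in DMSO and 54, 27, 0 and 102 after washout. IL1B, a pro-inflammatory cytokine of the inflammasome pathway, had 2353, 61, 15 and 1279 CP20M in DMSO and 3677, 477, 18 and 7276 after washout. The change was small in H28, and in H2452 and MSTO the washout level was above that under palbociclib (194 and 4599). CXCL8, a neutrophil chemokine, went from 71, 91, 45 and 1354 to 138, 374, 74 and 2647 CP20M. IL11 fell by 1.15, from 77, 23, 31 and 23 to 18, 11, 2 and 13 CP20M. Cytokines named in the study that did not pass the test were IL6 (1.08, FDR 0.129), CCL2 (1.89, FDR 0.182), CCL5 (0.77, FDR 0.357) and IL1A (0.67, FDR 0.427). For CCL2 the lines lay far apart, at 91, 478, 25 and 5 CP20M in DMSO and 379, 583, 23 and 634 after washout. Of 17 NF-kB subunits and feedback genes, TNFAIP3, an inhibitor of NF-kB signalling, was the only one called (1.64 ± 0.29, FDR 0.0109). No cytokine was called higher without H2052 or without MSTO.

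Interferon-stimulated genes had 7 of 44 members higher (15.9%, against 2.81% of all tested genes) and 0 lower, with a median of 0.38. The median was -0.13 in H2052, 0.79 in H2452, 0.28 in H28 and 0.48 in MSTO. IFIT2, whose product binds viral RNA, had 550, 3864, 32 and 757 CP20M in DMSO and 2333, 10047, 69 and 7467 after washout (1.91 ± 0.35, FDR 0.0129). GBP4 (1.25), SAMD9L (1.15), IFIT3 (0.97), IFIT1 (0.88) and DDX58 (0.74), a sensor of viral RNA, were also higher. IFIT3 went from 507, 4531, 39 and 662 to 945, 9192, 63 and 1780 CP20M. IFIT1 went from 1310, 2681, 18 and 111 to 2129, 5736, 20 and 368 CP20M. H28 had the lowest level of these IFIT genes in every condition. Without H2052, 2 of the 44 were called.

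The promoters of IFIT1 and IFIT3 are shown because such genes are known to be driven by the interferon-stimulated response element. Here and below, promoters are RefSeq sequences of GRCh38.p14, from 250 bases before to 50 bases after the start, 5′ to 3′ on the strand of the gene. Capitals mark TTTCNNTTT or its reverse complement, matched on both strands. Of the 7 higher genes, 5 had a promoter in the table used and all 5 held a match, against 7.19% of the 11968 promoters of tested genes. The 7 come from a list of known interferon-stimulated genes, so matches there say nothing about the washout. Among promoters of all higher genes the share was 8.21%, and among those of all lower genes 9.54%. Members of the list that were not called are not given. A match is a description of the letters and not evidence of a bound factor.
IFIT1, chr10:89392373-89392672, strand +: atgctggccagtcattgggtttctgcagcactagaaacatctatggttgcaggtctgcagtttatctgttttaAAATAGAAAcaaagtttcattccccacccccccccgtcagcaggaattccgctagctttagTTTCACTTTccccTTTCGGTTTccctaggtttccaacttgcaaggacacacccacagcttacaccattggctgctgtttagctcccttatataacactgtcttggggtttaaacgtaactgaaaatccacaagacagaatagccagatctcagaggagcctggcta
IFIT3, chr10:89327747-89328046, strand +: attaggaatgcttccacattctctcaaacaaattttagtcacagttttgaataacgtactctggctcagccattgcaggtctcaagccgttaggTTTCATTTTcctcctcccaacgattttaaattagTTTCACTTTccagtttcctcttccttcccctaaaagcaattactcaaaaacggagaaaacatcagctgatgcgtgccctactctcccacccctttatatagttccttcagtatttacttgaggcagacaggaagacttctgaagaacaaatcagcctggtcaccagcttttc

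MHC class I presentation had 4 of 20 members higher (20%, against 2.81% of all tested genes) and 1 lower. The heavy chain genes HLA-B (0.73), HLA-G (0.69) and HLA-C (0.68) were among those that rose. HLA-B went from 4225, 33939, 925 and 8676 to 5303, 45756, 1560 and 22937 CP20M, with the largest change in MSTO. These genes are close copies, and reads shared among them make single values uncertain. PSME1, a proteasome activator subunit, fell by 0.66. Leaving out any 1 line left at most 1 member called higher.

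The lysosome list, enzymes and membrane proteins of the degradative compartment, had 11 of 40 members higher (27.5%) and 0 lower, against 2.81% of all tested genes, and 39 members were above 0. The median was 0.54 after washout and 0.69 under palbociclib, with line medians of 0.38 in H2052, 0.43 in H2452, 0.47 in H28 and 0.70 in MSTO. ASAH1, the acid ceramidase, went from 568, 1484, 1442 and 578 to 1025, 5722, 3977 and 1092 CP20M (1.29 ± 0.19, FDR 0.006). Every line was higher after washout. MCOLN1 (0.98), a lysosomal calcium channel, MANBA (0.88) and CTSA (0.83) followed. GLB1, the beta-galactosidase whose activity is used to stain senescent cells, rose by 0.65. Without MSTO, 6 of the 40 were called.

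In the list of G1 cyclins, CDKs and inhibitors, 2 of 13 members rose (15.4%, against 2.81% of all tested genes) and 1 fell. CCND2, a D-type cyclin (chromosome 12 from 4269771 to 4305353), had 401, 3, 28 and 703 CP20M in DMSO and 553, 58, 432 and 7466 after washout (2.44 ± 0.52, FDR 0.0197), with little change in H2052. CCND1 went from 20388, 5755, 22292 and 8101 to 38764, 12371, 29121 and 19974 CP20M (0.93 ± 0.15, FDR 0.00807). CDKN1B, which encodes the inhibitor p27, fell by 0.61 (FDR 0.0323), from 895, 968, 641 and 944 to 776, 667, 354 and 515 CP20M. CDKN2C, the inhibitor p18, had a difference of -0.67 (FDR 0.135). Without MSTO, no member of the list was called.

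The genes of cell division were mostly not called after washout, although nearly all stayed below DMSO, and the lines were not alike. All 40 genes of the mitosis list were down in the earlier pairs, and 0 of 40 was called lower after washout in limma, with 2 at an unadjusted p under 0.05 and 1 called with a pseudocount of 50. Below 0 were 39 of the 40, against 9997 of all 17803 tested genes. Their median was -0.44 after washout against -2.89 under palbociclib. By line it was 0.20 in H2052, -0.10 in H2452, -1.07 in H28 and -0.75 in MSTO. CDC20, an activator of the anaphase-promoting complex, had 1956, 3093, 2095 and 2321 CP20M in DMSO, 306, 232, 448 and 391 under palbociclib and 2017, 2769, 1059 and 1288 after washout (-0.48 ± 0.31, FDR 0.325). In H2052 and H2452 it was near its DMSO level and in H28 and MSTO it was below. The members with the largest differences were NUF2 (-0.89, FDR 0.0993) and NEK2 (-0.73, FDR 0.231).

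DNA replication had 1 of 36 members called lower (2.78%, near the 2.95% of all tested genes) and 34 below 0. The called gene was PRIM1, the small primase subunit (-1.07 ± 0.28, FDR 0.04). At an unadjusted p under 0.05, 11 members were below DMSO, and the list median was -0.42. The line medians were 0.19, -0.39, -0.85 and -0.36 in H2052, H2452, H28 and MSTO. Homologous recombination and Fanconi genes had 0 of 27 called in limma, with 3 at an unadjusted p under 0.05, 25 below 0, a median of -0.29 and line medians of 0.26, -0.25, -0.94 and -0.36. FANCD2 was at -0.73 (FDR 0.127) and EXO1 at -0.72 (FDR 0.101). E2F7, a repressive E2F factor, was the 1 of 18 E2F and pocket proteins that fell (-0.63, FDR 0.0417). H28 was the lowest line in these lists and H2052 the highest.

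Chromatin proteins remained low in part. Of 17 chromatin and lamina proteins known to be lost in senescence, 5 were lower (29.4%, against 2.95% of all tested genes), and no member was above 0. HMGB2, a chromatin protein of proliferating cells, had 1147, 1265, 2169 and 3128 CP20M in DMSO and 685, 860, 659 and 1064 after washout (-1.13 ± 0.23, FDR 0.0167). EZH2, the methyltransferase of histone H3 lysine 27, went from 205, 969, 1526 and 907 to 141, 612, 564 and 471 CP20M (-0.88 ± 0.16, FDR 0.0109). LBR (-0.86), HMGB1 (-0.65) and HMGN2 (-0.59) also fell. Without MSTO no member was called, and without H2052 only 1 was.

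Histone genes were the family furthest below DMSO. The clustered histone genes supply the proteins that package new DNA and are transcribed in S phase, and most of their transcripts end in a stem-loop without a poly(A) tail. The list also holds H1F0, H2AFX, H2AFZ and H3F3B, which lie outside the clusters. Of 21 tested members, 15 were lower (71.4%, against 2.95% of all tested genes) and 0 higher. The median was -1.20 after washout and -2.24 under palbociclib, and the line medians after washout were -0.97, -1.15, -1.52 and -1.26 in H2052, H2452, H28 and MSTO. HIST1H3H, an H3 gene (ENSG00000278828, chromosome 6 from 27810051 to 27811300), had 767, 1160, 2627 and 3113 CP20M in DMSO, 63, 66, 155 and 331 under palbociclib and 265, 432, 452 and 1185 after washout (-1.70 ± 0.20, FDR 0.00432). In each line the washout value lay between the other 2. HIST2H2AB, an H2A gene, went from 612, 361, 1785 and 942 to 167, 125, 312 and 257 CP20M (-1.90 ± 0.19, FDR 0.00351). HIST1H4C, an H4 gene, went from 565, 1334, 3781 and 1924 to 237, 604, 815 and 846 CP20M (-1.43 ± 0.21, FDR 0.00595).

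A set of every tested histone cluster gene ID was chosen after the values were seen, and HIST1H3D has a pair of IDs. Of these 65, 36 were lower (55.4%, against 2.95% of all tested genes) and 0 higher. All 65 were below 0 (64 with median-of-ratios factors), against 9997 of all 17803 tested genes. The count of lower IDs was 36 with the 8 libraries alone and 35 under either other scaling. It was 20 to 41 when a line was left out, lowest without MSTO and 26 without H2052. Over all tested genes, 208 were lower with the 8 libraries, 289 and 376 under the other scalings and 123 to 414 without a line. Histone genes are near-identical copies, so values of single genes are uncertain. Among the 15 largest falls of all genes, those outside the histone clusters were INSIG1, SCD, EVI2A (-1.85), a membrane protein gene within an intron of NF1, and ADAMTS6 (-1.62).

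HIST1H3H and CDC20 are shown as a gene that stayed low and a gene that came back further, with CCAAT (bound by NF-Y), TATAAA and TTTGAA (part of the cell cycle homology region, CHR) searched on both strands. The CDC20 promoter was chosen after its values were seen. Of 29 lower histone genes with a promoter in the table, 89.7% held CCAAT, 69.0% TATAAA and 34.5% TTTGAA. Of 33 promoters of the mitosis list, 75.8% held CCAAT, 6.06% TATAAA and 66.7% TTTGAA. Over all 11968 promoters of tested genes, the shares were 36.3%, 6.13% and 9.93%. Histone promoters resemble each other, since the genes are copies. Capitals mark CCAAT and TATAAA in HIST1H3H and TTTGAA and CCAAT in CDC20, in either orientation.
HIST1H3H, chr6:27809801-27810100, strand +: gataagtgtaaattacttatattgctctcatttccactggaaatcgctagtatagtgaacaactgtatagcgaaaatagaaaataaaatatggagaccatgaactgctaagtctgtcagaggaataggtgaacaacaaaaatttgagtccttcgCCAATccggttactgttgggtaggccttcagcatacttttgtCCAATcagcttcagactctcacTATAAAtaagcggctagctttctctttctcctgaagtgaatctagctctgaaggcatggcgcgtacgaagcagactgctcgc
CDC20, chr1:43358731-43359030, strand +: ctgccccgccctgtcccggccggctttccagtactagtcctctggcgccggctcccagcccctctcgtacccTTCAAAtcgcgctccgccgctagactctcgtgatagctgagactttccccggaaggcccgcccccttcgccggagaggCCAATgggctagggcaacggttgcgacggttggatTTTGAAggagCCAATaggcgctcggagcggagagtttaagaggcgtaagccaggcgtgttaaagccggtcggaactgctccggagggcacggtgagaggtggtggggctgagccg

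**Figure D4:**
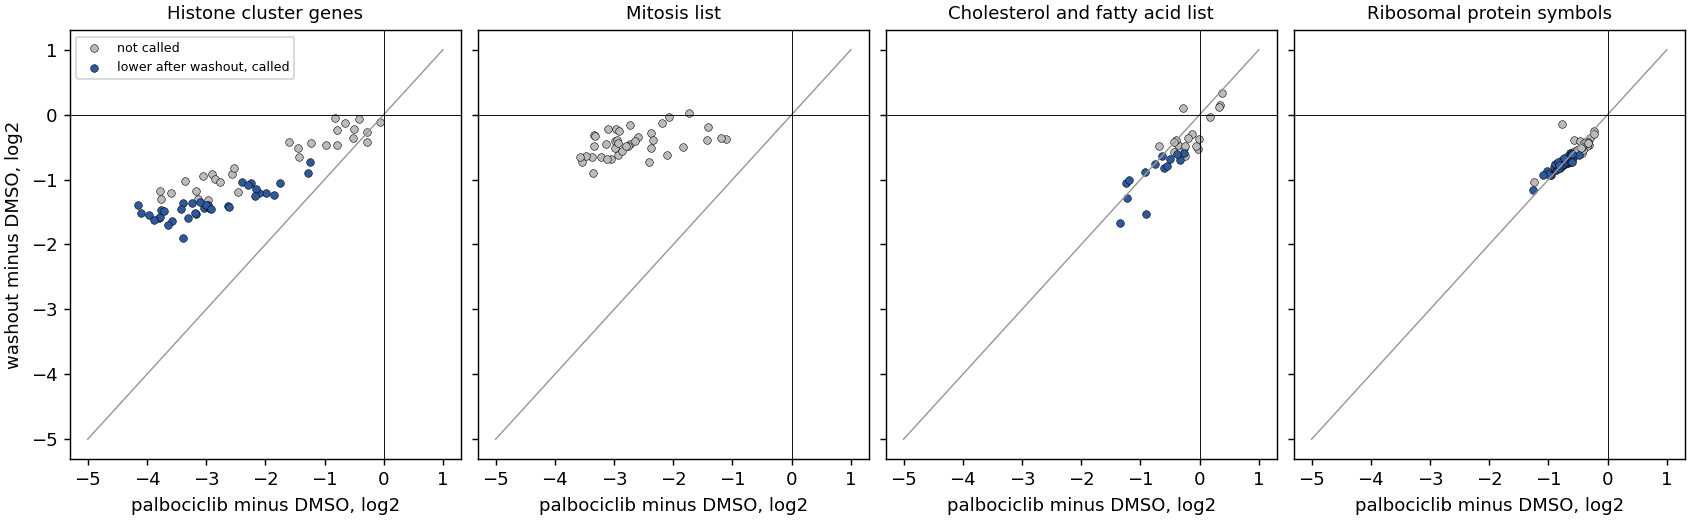
Washout minus DMSO (y axis) against palbociclib minus DMSO (x axis) on the log2 scale, 1 point per gene, for 65 histone gene IDs, the 40 genes of the mitosis list, the 32 genes of the cholesterol and fatty acid list and 82 ribosomal protein symbols; the diagonal marks equal differences and both axes share the DMSO libraries. Mitosis genes have a median of -0.44 on the y axis with 39 of 40 below 0, histone genes lie lower (median -1.20), and the cholesterol and ribosomal groups have medians of -0.56 and -0.70 on the y axis and -0.37 and -0.66 on the x axis.

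Genes of cholesterol and fatty acid synthesis were lower after washout. Of 32 members, 14 were lower (43.8%, against 2.95% of all tested genes) and 0 higher. The median was -0.56 after washout, -0.37 under palbociclib in the same experiments and -0.50 in the earlier pairs, and the line medians after washout were -0.95, -0.60, -0.41 and -0.27. INSIG1, which retains the SREBP factors in the endoplasmic reticulum and is itself a SREBP target (chromosome 7 from 155297776 to 155310235), had 2816, 2049, 1968 and 2116 CP20M in DMSO and 751, 909, 671 and 500 after washout. The groups did not overlap (-1.66 ± 0.15, FDR 0.00351). SCD, the stearoyl-CoA desaturase, had 28831, 14006, 13486 and 14103 CP20M in DMSO, 15056, 6650, 14173 and 4400 under palbociclib and 8250, 4370, 10430 and 2970 after washout (-1.52 ± 0.26, FDR 0.00998). In each line SCD was lower after washout than under palbociclib, but limma called 0 genes lower in washout minus palbociclib (2322 genes in either direction at an unadjusted p under 0.05).

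FADS2 and FADS1, the fatty acid desaturases, fell by 1.28 and 1.06, and TM7SF2, a sterol reductase, fell by 1.01. FADS1 and TM7SF2 were at -1.24 and -1.19 under palbociclib. HSD17B7, SREBF1, FASN, FDFT1, ACACA, FDPS, SREBF2 and CYP51A1 were also called, between -0.88 and -0.59. HMGCS1, early in the mevalonate pathway, was at -0.64 (FDR 0.0814) and was not called. The count was 11 and 12 under the other scalings, and 3 without H2052, the line with the lowest median.

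The genes of cytosolic ribosomal proteins, a family chosen after the values were seen, were lower as a group. Of 82 tested symbols, 54 were lower (65.9%, against 2.95% of all tested genes), 0 higher and all 82 below 0, with a median of -0.70 after washout and -0.66 under palbociclib in the same experiments. In the earlier pairs the median was -0.27, and RPS15A and RPL22L1 were the ones called down. Under the other scalings 44 and 50 were lower and all 82 stayed below 0. Without H2052, 24 were called. RPL5 had 6764, 7763, 9048 and 7941 CP20M in DMSO and 3112, 4915, 4439 and 4283 after washout (-0.92 ± 0.09, FDR 0.00351), so the groups did not overlap. RPS6 went from 9993, 5751, 7467 and 15521 to 4328, 3500, 3245 and 10123 CP20M (-0.93 ± 0.12, FDR 0.00465). RPS3A fell by 1.15. Many of these genes have processed copies in the genome that can share reads. In the ribosome biogenesis list, 3 of 32 members fell, FBL (-0.95), a methyltransferase of ribosomal RNA, NPM1 (-0.63) and NOB1 (-0.59), and the list median was -0.22.

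In the other lists, calls are read against the 2.81% of all tested genes that were higher and the 2.95% that were lower. Glycolysis and hypoxia genes had 4 of 34 higher, ADM (1.55), NDRG1 (1.11), P4HA2 (1.06) and HK2 (0.66), and 0 lower. The ATF4 stress response had 3 of 24 lower, ATF4 (-0.77), CEBPG (-0.62) and SHMT2 (-0.60). None of the ATF4 list was lower without H2052, H28 or MSTO, with 8 or 26 libraries, without the filter, without the variance trend or with median-of-ratios factors (1 higher), and with every DMSO library of the line as control 2 were higher and 0 lower. Of 20 immediate early and ERK feedback genes, DUSP6 (1.59), SPRY4 (1.24) and ETV5 (0.94), all known as targets of ERK signalling, were higher. Of 26 TEAD and YAP targets, IGFBP3, ANKRD1 and CTGF (0.85) were higher and AXL (-0.99) and AJUBA (-0.60) lower. Of 22 NRF2 genes, HMOX1 (0.82) was higher and TKT (-0.83) lower (4.55% each). Of 27 TGF-beta genes, LRRC32 (1.01) was higher and SMAD4 (-0.59) lower (3.70% each, near the shares of all genes). Of 30 p53 targets, SUSD6 (0.79) was the only one called (3.33%, near the share of all genes). Of 17 EMT genes, FN1 and CLDN1 (0.77), a tight junction protein, were higher. Of 16 mesothelial markers, UPK1B (1.88), CALB2 (1.61) and KRT7 (0.80) were higher, and CALB2 was at 0 in both H28 libraries. These 3 calls were lost, with 0 left, with a pseudocount of 50, no filter, upper-quartile factors, no variance trend, 8 libraries, or without H2052, H2452 or MSTO. With 8 libraries the ATF4, NRF2, TGF-beta and p53 lists also had 0 calls, and glycolysis, the ERK feedback genes and EMT had 1 each. None of 16 BCL2 family genes, 11 MYC network genes or 3 tested markers of other cell types was called in limma. At an unadjusted p under 0.05 there was 1 BCL2 family gene above and 1 below DMSO, 1 MYC network gene below and 0 of the other markers, and either other scaling called 1 BCL2 family gene higher. BBC3 (-0.77, FDR 0.177), BMF (-0.77, FDR 0.291), MYCL (0.79, FDR 0.176) and MYC (-0.44, FDR 0.177) had the largest differences among the BCL2 and MYC lists.

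**Figure D5:**
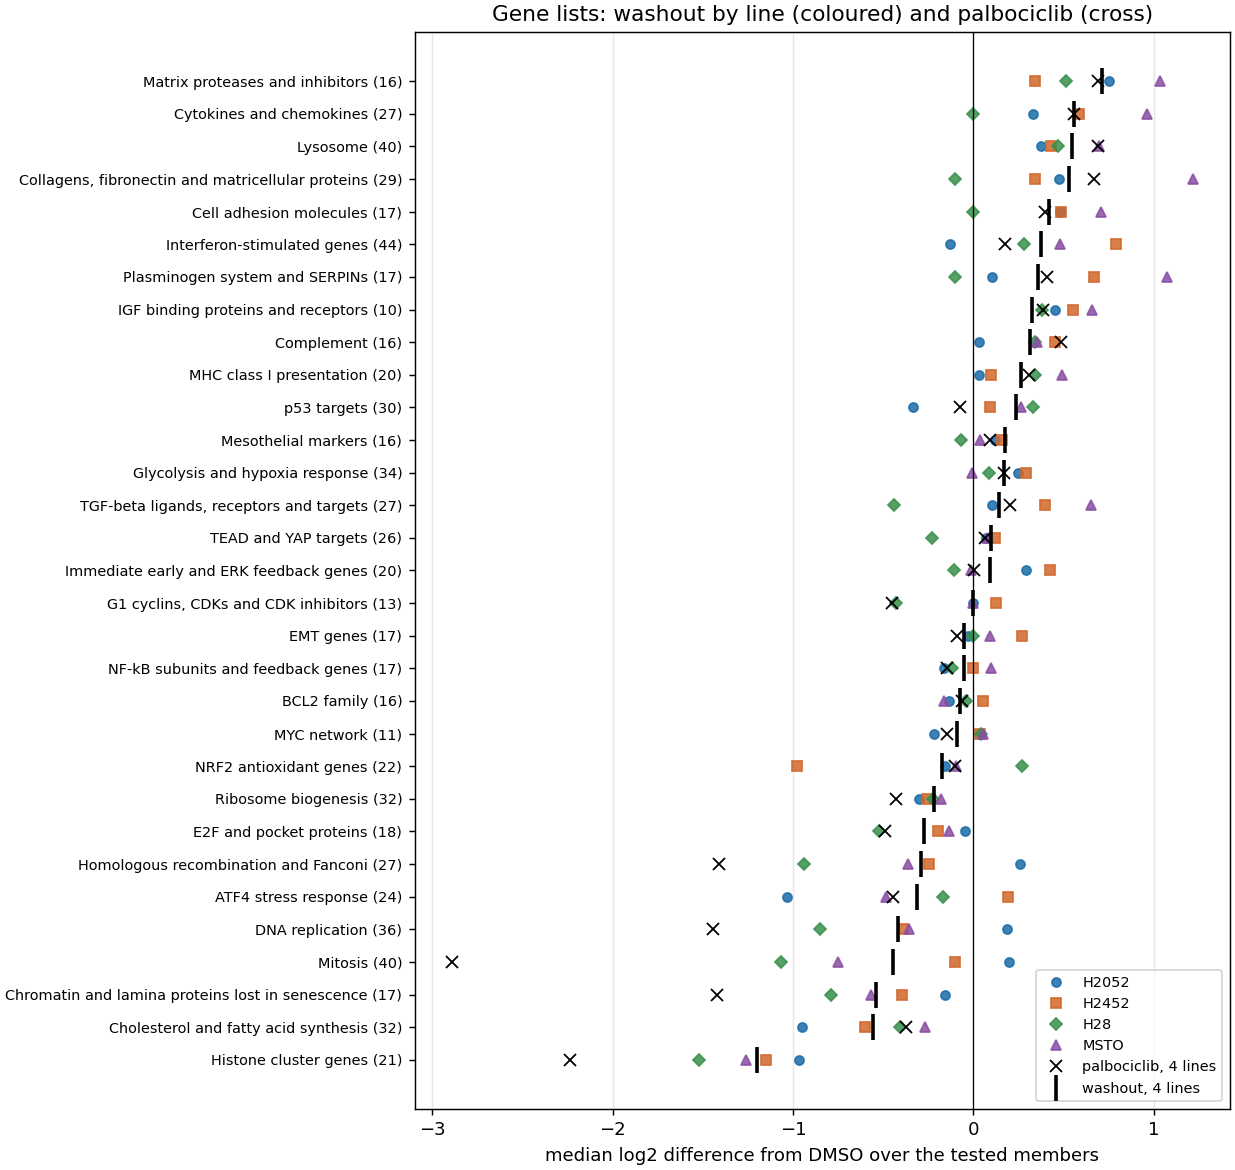
Median log2 difference from DMSO over the tested members of each gene list (number of members in brackets), leaving out markers of other cell types. Coloured points show washout in each line, a bar washout over the 4 lines and a cross palbociclib in the same experiments. Histone genes are lowest after washout at -1.20, and mitosis genes have moved from -2.89 to -0.44, with H28 at -1.07 and H2052 at 0.20.

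In single lines, 19.7% of tested genes were beyond 1.5-fold between washout and DMSO in H2052, 16.2% in H2452, 24.3% in H28 and 25.5% in MSTO. Between DMSO libraries of different experiments of the same line, these shares were 10.2% in H2052 (1 pair), 7.27% to 16.05% in H2452, 10.8% to 12.7% in H28 and 14.3% to 21.6% in MSTO (3 pairs each). The H2452 value was just above its highest DMSO pair, and a change in 1 line alone has no replicate check.

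Some of the largest changes of single lines were found in 1 line and others in more. In H2052, OLR1, a receptor of oxidized LDL, went from 36 to 787 CP20M, and in MSTO from 49 to 2167. TNC, the matrix protein tenascin C, went from 799 to 113 CP20M in H2052 and from 2042 to 821 in H2452, but from 112 to 281 in H28. In H2452, IL36B and IL36RN, a cytokine of the interleukin-1 family and its antagonist, went from 8 and 9 to 690 and 667 CP20M, and were at 0 or 1 in the DMSO and washout libraries of the other lines. AKR1B10, an aldo-keto reductase, went from 1211 to 169 CP20M in H2452 and from 1580 to 4682 in H28. NR0B1, an orphan nuclear receptor, went from 1661 to 213 CP20M in H2452 and from 73 to 21 in MSTO. In H28, CRYAB, a small heat shock protein, went from 23 to 2281 CP20M, and in H2452 from 991 to 4122. AQP1, a water channel, went from 16 to 1025 CP20M in H28, and IGF2 from 2130 to 164. In MSTO, TNFSF15, a cytokine of the TNF family, went from 3 to 1252 CP20M, while H2452 held 1109 in DMSO and 1279 after washout. NPTX1, a neuronal pentraxin, went from 8167 to 524 CP20M in MSTO, and CCL2 from 5 to 634. The other genes with the largest changes were PI3, C3, NTRK3, IL31RA, CHI3L1, KIF1A, INS-IGF2, S100A2, MIR3648-1, ACTBL2, PSG1 and VGF.

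Among the 656 earlier up genes, those with the smallest difference over the 4 lines were KCND3 (0.13), TMEM169 (0.15), ITM2C (0.15), AOX1 (0.19) and IGFBP4 (0.19). Single lines could lie far from DMSO. IGFBP4 was at 0.24 in H2052, 1.02 in H2452, -2.41 in H28 and 1.91 in MSTO. AOX1 was at 1.14 in H2452 and -0.40 in H28. Among the 1222 earlier down genes, those highest against DMSO were SLC4A8 (0.37), POU3F2 (0.31), ANGPTL2 (0.21), LILRB3 (0.19) and UTS2 (0.17), none of them called.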

How the data were processed

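RNA-seq libraries were made from total RNA with a directional kit and sequenced paired-end. Per the submitters' processing notes and the study's methods, the tools included Trimmomatic 0.36, STAR 2.5.3, HTSeq 0.9.1 and DESeq2, with build GRCh38. The deposited values are a score, CP20M, which the authors scaled to 20000000 reads per library and rounded up, so they are not counts and no count test was used. Column totals were 20011253 to 20021400.

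Genes with at least 100 CP20M in any of the 33 libraries were kept (17803 of 58302). Differences were tested with limma 3.58.1 in R 4.3.3 on log2(CP20M + 10), with the experiment of each line as a block, in 12 libraries, at FC 1.5 and an FDR of 0.05 (Benjamini-Hochberg). The script was tested on simulated data. The labels state that the washout and palbociclib libraries of a line come from the same experiment. Deviations of the washout and DMSO libraries from their treatment means correlated at 0.879 to 0.924 within a line, against at most -0.031 with another line. This sets the lines apart and cannot show that libraries of a line share an experiment. Named genes included the 15 largest changes in each direction among called genes with 1 sign in all lines and no clone or locus name. They also included up to 5 called members of each list (or the 2 largest if none was called) and genes named in the study. The 3 largest changes per line in each direction and the 5 extremes of the earlier gene sets were added. The lists and comparisons were chosen with earlier results of these data known. Each line gave 1 washout library. The spread in the fit is what remains over the 12 libraries after line and treatment. Some members of the lists are counted but not reported by name here.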

Additional observations from a re-analysis of the deposited data

Results flagged for a closer look

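Among the 4 lines, 1 lay apart from the other 3 for 2 of 32 list medians and for 8 of 124 named genes, where chance alone sets apart about 1 in 20 groups. The MYC network median was -0.22 in H2052 and the TEAD and YAP median -0.23 in H28. ADAMTS15, a secreted protease, was at 4.11 in MSTO, and SERPINE2, a protease inhibitor, at 0.32 in H2052. The histone genes HIST1H3H and HIST1H4C were at -2.51 and -2.20 in H28, below the other lines. IGFBP7 was at 1.03 and MMP15, a membrane protease, at 0.049 in H2452. BMF, a pro-apoptotic BCL2 family gene, was at -2.29 in H28. CALB2 was at 0.00 in H28, where it was listed at 0 in DMSO and after washout.

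Of the 124 named genes screened, 3 moved more than 1.5-fold in opposite directions in different lines, and these differences were not tested. Genes named outside that screen, such as TNC, AKR1B10 and IGF2, which were chosen for a change in 1 line, also moved in opposite directions. MYCL was at 1.91 in H2452 and -0.62 in H2052. CCL5 was at 2.77 in MSTO and -0.73 in H2452. IL1A was at 2.83 in H2452 and -0.85 in H28.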

How the results depend on the processing

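The counts rested on the line as a block and on single lines. Without the replicate block, limma called 0 genes higher and 0 lower (377 at an unadjusted p under 0.05), and 0 of the earlier up and 0 of the earlier down genes. With the 8 washout and DMSO libraries alone, 114 genes were higher and 208 lower, with 93 and 109 of the earlier up and down genes. A pseudocount of 50 gave 324 higher, and no filter gave 302 higher and 197 earlier up genes. All 26 libraries of the sensitive lines gave 316 lower. Median-of-ratios scaling gave 289 lower and 169 earlier down genes. When 1 line was left out, 81 to 345 genes were higher and 123 to 414 lower, with 63 to 195 earlier up and 59 to 198 earlier down genes. Earlier lists cut to a fold change above 2 had 107 and 88 members called. The washout calls were the same there, and a shorter list can only hold fewer of them. With a pseudocount of 50, a setting added after seeing the data, the number of genes beyond 1.5-fold in H2052 was 2316 and that of genes beyond 1.5-fold in H2452 was 1686. The IL1A log2 difference ran from -0.046 without H2452, a reversed sign, to 1.18 without H28. For single named genes, 1256 values under other settings kept their side of the threshold, 598 lost it and 3 gained it. The causes were not tested. Depth was estimated for 4 libraries only, so no interval for counting error is given.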
